A study of Callithrix jacchus with 71 samples.

Results

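The genes described here encode the proteins of the cytosolic ribosome. They were chosen by symbol alone, as RPL or RPS followed by a number with or without a letter or an L, together with RPLP0, RPLP1, RPLP2 and RPSA. S6 kinase genes, RPS4X, RPS4Y and rows named by a locus number were left out, and so was RPL36AL, whose ending the pattern does not cover. This gave 76 of the 23561 named rows of the table, 31 for the small subunit and 45 for the large subunit. The measurements are single-cell RamDA-seq libraries of common marmoset cells, a method that copies total RNA along its whole length with not-so-random and oligo-dT primers. They comprise 65 iNSLCs of clone E01F A-2 (induced neural stem cell-like cells) at passage 1, 4 no. 40 ESCs (embryonic stem cells), 1 E01F A-2-2 iPSC (induced pluripotent stem cell) and 1 E01F fibroblast. The labels give each group as a single clone or line, with the cell type and no treatment or time point. By the study's account, E01F fibroblasts came from the dorsal skin of 1 embryonic marmoset, the iNSLCs were made from them with episomal vectors carrying human reprogramming factors and a dominant-negative mouse p53, and those vectors were still present in iNSLCs. E01F A-2-2 iPSCs were then derived through iNSLCs, so the iNSLC, iPSC and fibroblast cells share an animal and the no. 40 ESCs do not. Cells of 1 culture are not replicates of a condition, and the iPSC and the fibroblast are single cells, so differences between groups are given as sizes with no test. Differences of clone, animal, medium and library cannot be told apart from differences of cell type.

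A cytosolic ribosome holds 1 copy of nearly every ribosomal protein, assembled on ribosomal RNA in the nucleolus and finished in the cytoplasm. The mRNAs of these proteins begin with a terminal oligopyrimidine tract, through which mTOR signalling and the binding protein LARP1 set their translation as a group. They are among the most abundant mRNAs of dividing cells. Many ribosomal protein genes have processed copies elsewhere in mammalian genomes, and how reads that match several places were counted is not given in the sources used here, so the level of a single gene is uncertain where such copies exist. RefSeq names 78 marmoset genes that follow the same pattern, of which 74 have a row here. The other 2 members, RPL39 and RPS6, are not among those RefSeq symbols. RPL10L, RPL29, RPL36A and RPL7A were not analysed here.

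Levels are given as RPM, the reads of a gene for every 1000000 reads that the cell has on named rows, and a share is a percent of those reads. The iNSLC libraries held 82268 to 695241 reads, the ESCs 134328 to 1003718, the iPSC 302617 and the fibroblast 1294430. ESC cell 11 was the shallowest ESC and had 7126 detected genes, whereas the other ESCs had 15122 to 15521. The markers fitted the labels of the groups: 9 to 10 of 10 pluripotency markers had a read in each ESC and 9 in the iPSC, against 0 to 3 in an iNSLC and 1 in the fibroblast. Of 10 neural stem cell markers, 6 to 10 were read in an iNSLC and 2 to 4 in the other cells. The 10 fibroblast markers summed to 63127 RPM in the fibroblast and to between 257 and 4079 in the others. Each cell is named by the number in its label.

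Ribosomal protein genes took a larger share of the reads in every iNSLC than in 3 of the 4 ESCs, the iPSC and the fibroblast. The share ran from 2.92% to 7.14% in the iNSLCs, with a median of 4.28% and an SD of 0.925 percentage points over 65 cells. ESC cells 10, 11, 12 and 14 gave 0.950%, 0.918%, 4.62% and 1.70%, the iPSC 2.22% and the fibroblast 2.53%. The exact 95% binomial intervals, which cover counting error only, were 0.931 to 0.969% for ESC cell 10, 0.868 to 0.970% for cell 11, 4.57 to 4.67% for cell 12 and 1.67 to 1.74% for cell 14. They were 2.17 to 2.27% for the iPSC and 2.50 to 2.55% for the fibroblast. ESC cell 12 thus lay inside the iNSLC range, above 42 and below 23 of the 65 iNSLCs, and apart from the other ESCs. The iNSLC median was 4.51-fold the share of ESC cell 10, 4.66-fold that of cell 11, 2.51-fold that of cell 14, 1.93-fold that of the iPSC and 1.69-fold that of the fibroblast. On group means the summed level was lower by a log2 ratio of -1.12 in ESCs, -1.01 in the iPSC and -0.82 in the fibroblast. The single ESCs ran from -2.28 to 0.05 on that scale, and without cell 12 the ESC ratio was -1.91. The fibroblast value depended on the scaling, since on the deposited normalized counts it was -0.038, while the ESC and iPSC values there were -0.77 and -0.92. These shares compare RNA within a cell, and the amount of RNA per cell was not measured.

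**Figure D1:**
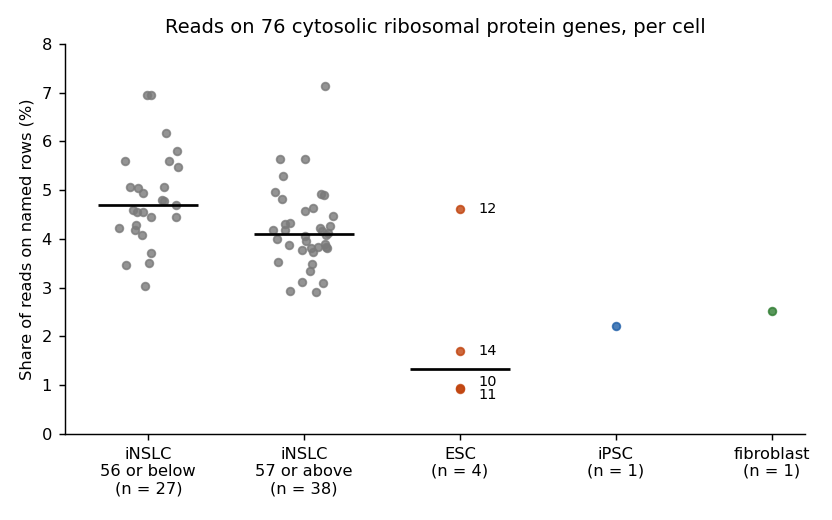
Share of each cell's reads (percent, linear axis from 0) that fell on the 76 ribosomal protein genes, with 1 point for each cell and lines at the medians of the iNSLCs (numbered up to 56 and from 57) and of the ESCs. The 65 iNSLCs run from 2.92% to 7.14%, and of the other cells only ESC cell 12, at 4.62%, lies inside that range.

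The balance between the subunits lay apart in the ESCs. Reads on large subunit genes were 1.26 to 1.83 times those on small subunit genes in iNSLCs (median 1.45), 1.10 to 1.13 times in the 4 ESCs, 1.27 times in the iPSC and 1.44 times in the fibroblast. The iPSC and the fibroblast lay inside the iNSLC range. In this measure ESC cell 12 lay with the other ESCs, and all 4 lay below every iNSLC. A part of the distance came from RPL5 and RPS21, which are described next. With both left out, the ratio was 1.13 to 1.77 in iNSLCs and 1.13 to 1.24 in ESCs, and the ranges overlapped.

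Between ESCs and iNSLCs, most ribosomal protein genes had a lower mean in ESCs, but by very unequal amounts, and a few were higher. Of the 74 genes that reached a mean of 10 RPM in 1 of the groups, 31 were more than 2-fold lower in ESCs and 3 more than 2-fold higher. Over all 12348 rows with such a mean, 26.5% were more than 2-fold lower and 26.8% more than 2-fold higher, beside 41.9% and 4.05% of the members. Without ESC cell 12, 54 were lower and 1 higher, beside 30.6% and 28.4% of all rows. The median log2 ratio of the 74 members was -0.84 and that of all rows 0.00. The median was -0.72 for small subunit and -0.89 for large subunit genes. Of the 76 genes, 11 had a higher mean in ESCs than in iNSLCs. The log2 ratios given here rest on group means plus 1 RPM.

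RPL5, which binds 5S ribosomal RNA together with RPL11 and can hold the ubiquitin ligase MDM2, had the lowest ratio over all 4 ESCs, close to that of RPS15A. Its lowest, median and highest levels in iNSLCs were 381, 1306 and 8845 RPM, and ESC cells 10, 11, 12 and 14 had 64.8, 81.9, 527 and 116. ESC cell 12 lay inside the wide iNSLC range and the other ESCs below it. The log2 ratio was -3.32, and -4.48 without cell 12. RPS15A, a protein of the small subunit, had 1048, 1854 and 3700.4 in iNSLCs and 98.6, 44.7, 543 and 108 in ESCs. Here the groups did not overlap, and the log2 ratio was -3.27, and -4.51 without cell 12, just below that of RPL5. RPL32, a large subunit protein, had 663, 1026 and 1929.9 in iNSLCs and 91.7, 104, 332 and 211 in ESCs. It too was lower in every ESC than in every iNSLC, with a log2 ratio of -2.56, and -3.00 without cell 12.

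In all, 6 of the 74 genes were lower in every ESC, cell 12 included, than in every iNSLC, where 0.421% of all rows were. RPS15A, RPL32, RPL17, RPL37 and RPS7 are among them. A row with no read in some iNSLC cannot lie below all iNSLCs, and 69 of the 76 members had a read in every iNSLC. The 0.421% is therefore not a share of rows of like level, and such a share was not computed. RPL17, which lines the exit tunnel for the nascent chain, had 75.7, 7.44, 362 and 131 RPM in the ESCs and 381 to 1345 in iNSLCs. RPL37 had 84.7, 14.9, 334 and 177 against 365 to 1624. Both were closest to the iNSLC range in ESC cell 12. The small subunit gene RPS7 had a log2 ratio of -2.01, and ESC cell 12 reached 748 RPM for RPS7 against at least 810.4 in iNSLCs. The other large subunit genes among the lowest ratios were RPL13 at -2.27 and RPL15 at -2.15, each with ESC cell 12 inside the iNSLC range. Without cell 12 the ratios of RPL17, RPL37, RPS7, RPL13 and RPL15 were -3.36, -3.16, -2.71, -3.26 and -3.45.

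RPS21, a small subunit protein that takes part in the maturation of the small subunit RNA, went the opposite way. The iNSLCs had 0 to 146 RPM with a median of 42.4 and a read in 60 of 65 cells, while ESC cells 10, 11, 12 and 14 had 499, 179, 399 and 534. All 4 ESCs lay above all 65 iNSLCs, with a log2 ratio of 3.22. It was the 1 member of 74 with such a separation, beside 1.85% of all rows. The iPSC and the fibroblast did not share it, at 49.6 and 63.3. Unlike most members, RPS21 was not highest in ESC cell 12, and its ratio without that cell was 3.22.

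The other members more than 2-fold higher in ESCs were RPL34 and RPL36, both of the large subunit. RPL34 was low throughout, with 0 to 86.8 RPM in iNSLCs and 26.9, 0, 66.9 and 47.4 in the ESCs, and a log2 ratio of 1.48. RPL36 had 11.2 to 243 in iNSLCs and 105, 179, 347 and 211 in ESCs, with a log2 ratio of 1.02. Both sets overlapped, and without ESC cell 12 the ratios were 0.99 and 0.67. Other members with a higher mean were RPL14 at 0.70, RPS23 at 0.62, RPL10A at 0.30 and RPS27 at 0.27. Of these, RPL14 had 48.8, 119, 422 and 90.4 in the ESCs, so the higher RPL14 mean came from cell 12. Without that cell RPL14, RPS23, RPL10A and RPS27 had log2 ratios of -0.28, -0.43, 0.16 and -0.07.

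**Figure D2:**
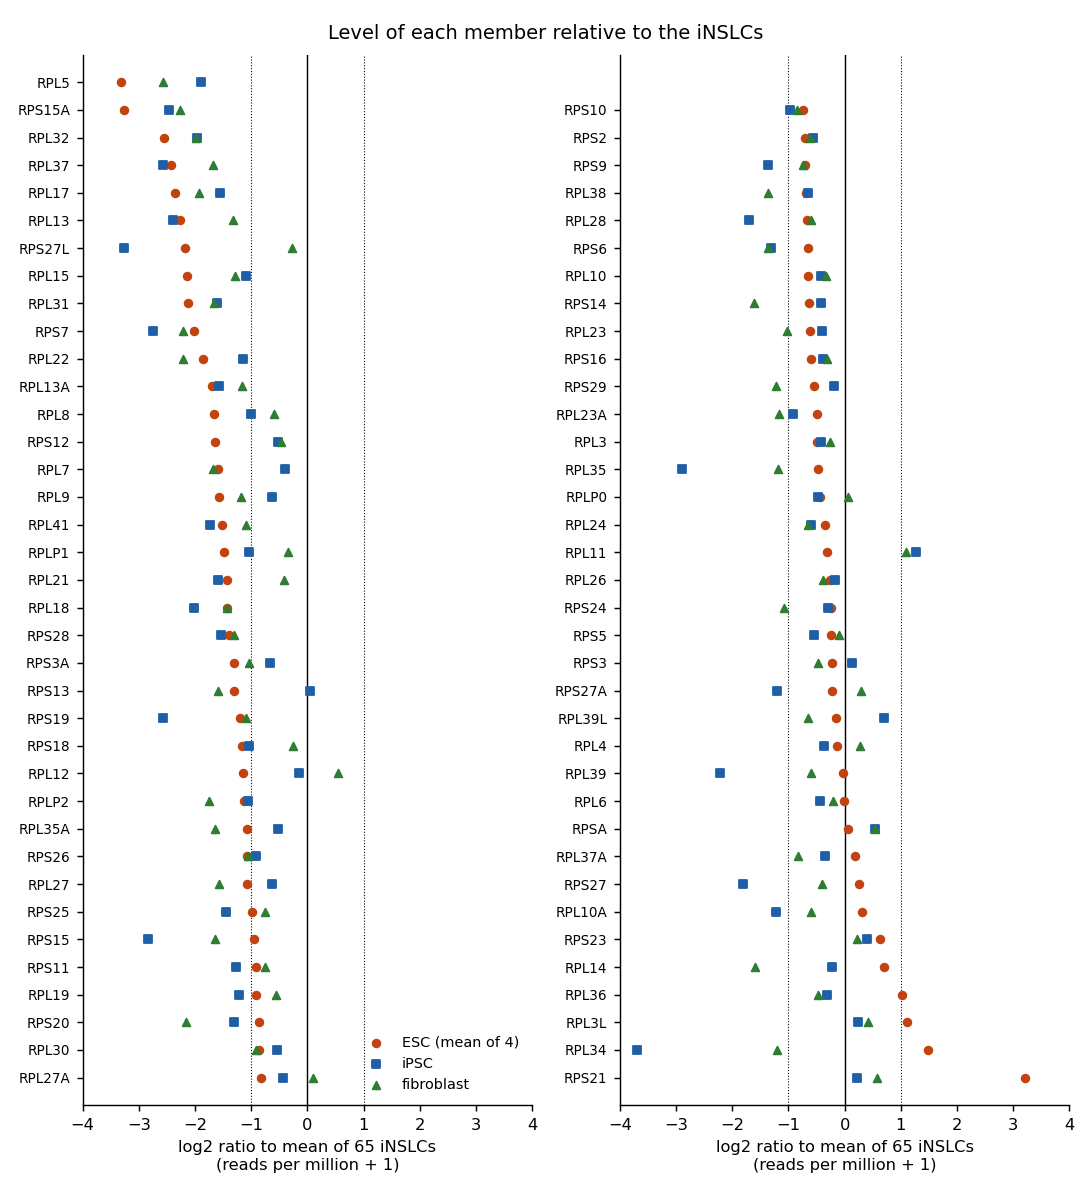
Log2 ratio of 73 ribosomal protein genes to the iNSLC mean (RPM plus 1) for ESCs, the iPSC and the fibroblast, with genes ordered by the ESC ratio and dotted lines at 2-fold. RPL34 and RPS27L had no read in the iPSC, so their iPSC points depend on the added 1. RPL5 and RPS15A stand at the low end for ESCs with -3.32 and -3.27, and RPS21 at the high end with 3.22 in ESCs against 0.22 in the iPSC and 0.57 in the fibroblast.

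The share that a gene takes of the ribosomal protein reads alone removes the difference in their total, and so sets ESC cell 12 beside the other ESCs. Transcript lengths were not used here, so these are shares of reads and not of molecules. RPS15A took 2.74% to 6.0% of the member reads in iNSLCs and 1.04%, 0.487%, 1.18% and 0.632% in ESC cells 10, 11, 12 and 14. RPL32 took 1.64% to 3.31% in iNSLCs and 0.965%, 1.14%, 0.718% and 1.24% in those ESCs. These were the 2 of the 76 members below the range of all iNSLCs in each ESC and also in the iPSC, where they took 1.58% and 1.26%. Rows outside the members were not given such shares, so no background stands beside this count. RPS21 took 0% to 0.260% in iNSLCs, 5.26%, 1.95%, 0.863% and 3.13% in the ESCs, 0.223% in the iPSC and 0.251% in the fibroblast. RPL36 took 0.0319% to 0.579% in iNSLCs and 1.10%, 1.95%, 0.751% and 1.24% in ESCs. For RPS21 and RPL36 all 4 ESCs lay above all iNSLCs, so in ESC cell 12 as well these genes took a larger share than in any iNSLC. Other members with such a separation were not counted.

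**Figure D3:**
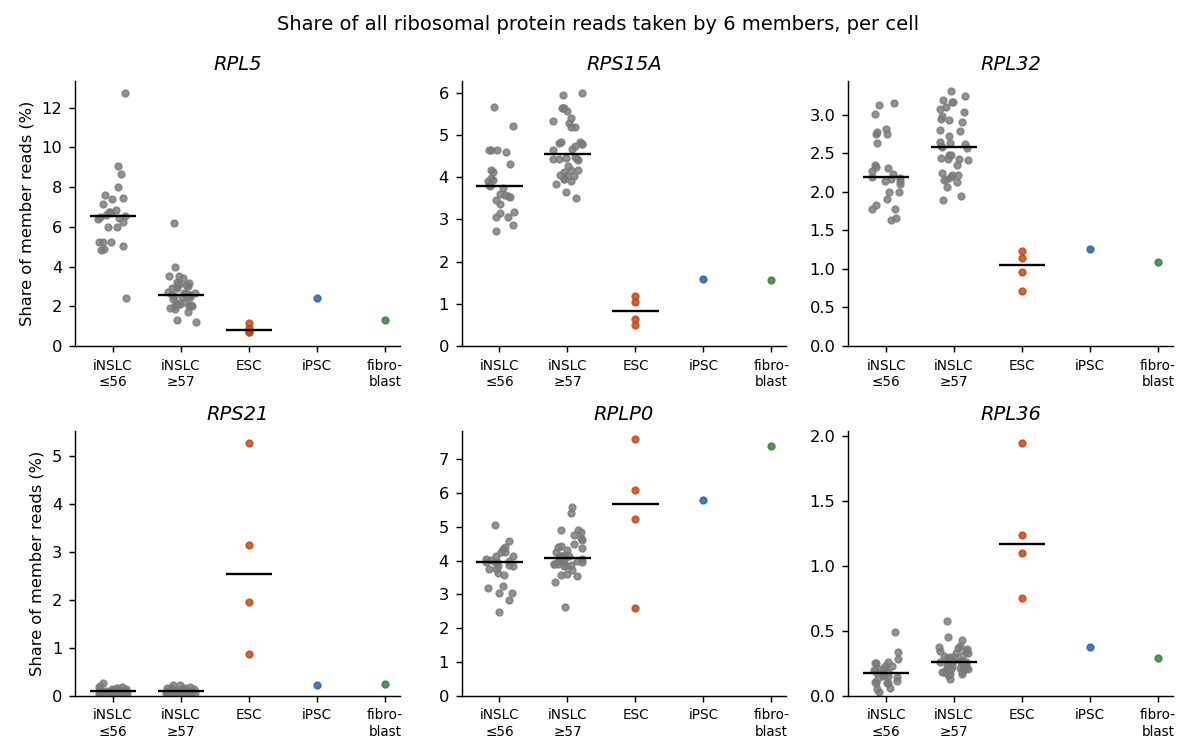
Share of the ribosomal protein reads (percent) taken by 6 genes, with 1 point for each cell and lines at medians. RPS15A and RPL32 are lower in all 4 ESCs and the iPSC than in any iNSLC, and RPS21 is higher in the ESCs, at 0.863% to 5.26%, than in the iNSLCs, at 0% to 0.260%.

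The ratios of the members were unequal, but they spread less than those of all rows. The SD of the log2 ratio of ESCs to iNSLCs was 1.04 over the 74 members and 2.03 over all 12348 rows. Among rows with a mean of at least 100 RPM in iNSLCs it was 0.89 for 67 members and 1.79 for 2165 rows, with medians of -0.92 and -0.49. The corresponding SDs for the iPSC were 0.85 and 1.69 and for the fibroblast 0.77 and 2.20. In the iPSC the medians at that level were -0.97 for members and -0.34 for all rows. In the fibroblast they were -1.03 for both.

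In the iPSC, 35 of 74 members were more than 2-fold lower than the iNSLC mean and 1 was more than 2-fold higher, beside 24.4% and 28.3% of all rows. Levels below every iNSLC were found for 20 of the 74, against 0.866% of all rows, and levels above every iNSLC for 0, against 7.46%. As for the ESCs, a row with no read in some iNSLC could not lie below all. The 0.866% is thus not a share of rows of like level. RPS15, near the decoding site of the small subunit, had 66.1 RPM in the iPSC and 52.6 to 862 in iNSLCs, a log2 ratio of -2.84. RPL35, at the rim of the exit tunnel, had 26.4 against 40.3 to 532, and RPS7 had 208 against 810.4 to 2497. RPL35 and RPS7 lay below all iNSLCs and RPS15 did not. RPL34 had no read in the iPSC, which allows up to 9.91 RPM at its depth, close to the iNSLC mean of 12.0. It is 1 of the 35, but a 2-fold difference is not shown for it, and with a pseudocount of 10 the count was 34. The 1 member past 2-fold higher was RPL11, the partner of RPL5 on 5S ribosomal RNA. It had 324 RPM in the iPSC against 14.0, 129 and 384 as the lowest, median and highest in iNSLCs. That iPSC value lay inside the iNSLC range and its log2 ratio was 1.27. RPL39L, RPSA and RPS23 followed with 0.70, 0.54 and 0.40, all inside the range.

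In the fibroblast, 37 of 74 members were more than 2-fold lower than the iNSLC mean and 1 was higher, beside 41.3% and 16.5% of all rows. The 37 are 50% of the members, near the share over all rows. On the deposited normalized counts 7 members were lower and 7 higher. Of all 8048 rows tested there, 1636 were lower and 2750 higher. That scaling moved the median log2 ratio of all rows from -0.65 to 0.42 and the higher share of the calls from 28.5% to 62.7%. For ESCs the median went from 0.00 to 0.49 and the higher share from 50.2% to 67.6%, with 12348 and 8253 rows tested. For the iPSC they went from 0.15 to 0.35 and from 53.7% to 63.1%, with 12238 and 8134 rows. In RPM, 20 members lay below every iNSLC, where 2.2% of all rows did, and 0 lay above, where 6.18% did. The 2.2% is again not a share of rows of like level. The lowest ratios were those of RPL5 at -2.56 (335 RPM), RPS15A at -2.27 (398), RPL22 at -2.21 (81.9) and RPS7 at -2.21 (301), and all of them lay below every iNSLC. The highest was RPL11, with 287 RPM and a log2 ratio of 1.10, inside the iNSLC range. RPS21, RPL12 and RPSA followed at 0.57, 0.55 and 0.54. RPL5 and RPL11, which form 1 complex with 5S ribosomal RNA, thus lay on opposite sides of the iNSLC mean in both the fibroblast and the iPSC. In ESCs both were lower, with RPL11 at -0.31 and -1.76 without cell 12, whose 313 RPM stood against 22.3 to 68.9 in the other ESCs.

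ESC cell 12 was set apart from the other ESCs across the members. Of the 67 members with a mean of at least 100 RPM in iNSLCs, 63 were highest in cell 12 among the ESCs. The like count over all rows of that level was not computed. The 63 are therefore not shown to be particular to these genes. The log2 ratio of cell 12 to the mean of the other ESCs had a median of 1.91 and ran from 0.09 to 3.53. Against iNSLCs the median log2 ratio was 0.11 for cell 12 and -1.61 for the other ESCs, with SDs over members of 0.88 and 1.05. Its total was like that of iNSLCs, but the members were spread around it. EEF1A1, the factor that brings tRNA to the ribosome, was at 4046 RPM in cell 12 and 429 to 1580 in the other ESCs. GAPDH, a glycolytic enzyme, was at 3838 RPM in cell 12, 3556 to 19939 in iNSLCs, 5099 in the iPSC and 4763 in the fibroblast, but at 474, 417 and 419.8 in ESC cells 10, 11 and 14. The same 3 cells also had the highest shares of reads on the row with no gene name, at 0.0224%, 0.449% and 0.0235%, against 0.00382% in cell 12 and at most 0.0137% in an iNSLC. It was thus cells 10, 11 and 14 that stood apart from all other cells in GAPDH. ESC cell 12 had 15122 detected genes and 732489 reads, of the same order as ESC cells 10 and 14. The cause of the difference was not tested.

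By role, the stalk proteins that recruit the elongation factors differed among themselves. RPLP0, which anchors the stalk, had 866, 1812 and 2882 RPM in iNSLCs and 498, 238, 3506 and 1039.7 in ESCs, with a log2 ratio of -0.44. ESC cell 12 was above every iNSLC, and without it the ratio was -1.60, past 2-fold lower. RPLP1 and RPLP2, which pair on the stalk, had 403, 499, 1596 and 553 and 286, 37.2, 382 and 355 in the ESCs and log2 ratios of -1.49 and -1.13, which were -2.14 and -1.35 without cell 12. In the fibroblast RPLP0, RPLP1 and RPLP2 had log2 ratios of 0.06, -0.35 and -1.75, and RPLP0 took 7.40% of member reads there against 2.47% to 5.60% in iNSLCs. RPSA, a small subunit protein also known as the laminin receptor precursor, was near the iNSLC mean in all groups, with log2 ratios of 0.06, 0.54 and 0.54 for ESCs, the iPSC and the fibroblast. The ESCs had 225, 372, 2094 and 654 RPM of it, so that mean rests on cell 12, without which the ratio was -0.94.

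Along the path of mRNA and tRNA, RPS3, at the mRNA entry, had ESC, iPSC and fibroblast ratios of -0.23, 0.13 and -0.47, and RPL10, which joins the large subunit late in its assembly, had -0.64, -0.43 and -0.33. Without ESC cell 12 the ESC ratios of RPS3 and RPL10 were -1.39 and -1.40, past 2-fold lower. RPS23, at the decoding centre, had 0.62, 0.40 and 0.22, and -0.43 for ESCs without cell 12. At the exit tunnel, RPL4 had -0.13, -0.36 and 0.28 and RPL31 -2.13, -1.60 and -1.65. RPL31 was lower by more than 2-fold in each comparison. The ESC mean of RPL4 rests on cell 12, without which its ratio was -1.11, past 2-fold lower. RPL39, a very short tunnel protein, had 0 to 107 RPM in iNSLCs and 14.9, 22.3, 75.1 and 23.7 in ESCs, with a log2 ratio of -0.02 for ESCs and -0.74 without cell 12.

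RPS6, the protein phosphorylated by S6 kinases, had 14.1 to 158 RPM in iNSLCs, 13.9, 37.2, 87.4 and 30.1 in ESCs, 26.4 in the iPSC and 25.5 in the fibroblast. Its log2 ratios were -0.65, -1.31 and -1.36, with -1.27 for ESCs without cell 12, and ESC cell 10 was the 1 cell outside the iNSLC range. RPS27A, which is made as a fusion with ubiquitin, had -0.23, -1.21 and 0.29. Of the genes known for Diamond-Blackfan anaemia, a failure of red cell formation, 4 were listed for description. Of these, RPS19 had -1.20, -2.57 and -1.09, RPS24 -0.25, -0.29 and -1.09, RPS26 -1.08, -0.91 and -1.05, and RPL35A -1.08, -0.52 and -1.64. These 4 were below the iNSLC mean, but other genes known for that disease were not. Examples are RPL11 in the iPSC and the fibroblast and RPS27 in ESCs, at 1.27, 1.10 and 0.27. The RPS27 value rests on ESC cell 12, without which RPS27 was not above the iNSLC mean, as given above. For RPS27A and these 4 genes the ESC ratios without cell 12 are not given here. RPS19 in the iPSC, at 162 RPM, and RPL35A in the fibroblast, at 63.3, lay below every iNSLC.

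The related copies were near the detection limit, and no member was without a read in all 71 cells. RPL39L, a copy of RPL39 known from testis, had a read in 37 of 65 iNSLCs, RPS27L, a target of p53, in 33, and RPL3L, known from muscle, in 15. Their highest levels in an iNSLC were 83.6, 91.9 and 33.3 RPM, where 3 reads are worth 4.32 to 36.5 RPM. RPS27L and RPL3L had a mean under 10 in every group and entered no count between the groups. Their relatives RPL3 and RPS27 had ESC log2 ratios of -0.48 and 0.27, with 647 to 1984 and 52.6 to 406 RPM in iNSLCs. Of the 76 members, 69 had a read in all 65 iNSLCs, and an iNSLC had a read for 71 to 76 of them.

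Among the 65 iNSLCs, ribosomal protein genes varied less than most rows with a mean of at least 100 RPM. The 10 with the highest means were RPLP1, RPS2, RPL5, RPL13A, RPS15A, RPLP0, RPL8, RPL13, RPS12 and RPL9, from 2142 to 1417 RPM, and the 10 largest in a cell held 36.4% to 45.9% of its member reads. The coefficient of variation (SD over mean across cells) had a median of 0.346 over the 67 members with a mean of at least 100, of which counting of reads alone gives 0.0994. The median was 0.589 over all 2165 rows with such a mean, where counting alone gives 0.161. Of those rows, 96.7% varied more than the median member. With the counting part taken out, the medians were 0.322 for members and 0.564 for all those rows. The rows were not matched on level. Among the most even members were RPL32 at 0.229, RPLP0 at 0.243, RPL31 at 0.246 and RPS12 at 0.249. The least even were RPL5 at 0.695, RPL12 at 0.670, RPS23 at 0.617, RPS27A at 0.592 and RPL15 at 0.562. RPL32 was thus the most even member within iNSLCs and among the most different from ESCs, while RPL5 was the least even within iNSLCs.

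**Figure D4:**
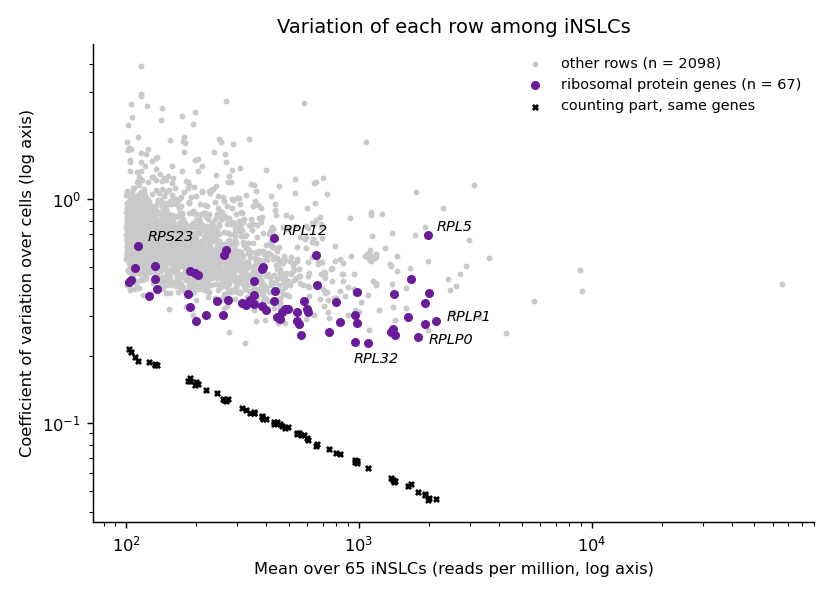
Coefficient of variation over the 65 iNSLCs against mean level (RPM, log axes) for 2165 rows with a mean of at least 100, with the 67 ribosomal protein genes marked and crosses for the part that counting of reads gives them. The members lie low in the cloud, with a median of 0.346 against 0.589 for all rows, and RPL5 and RPL12 stand above the other members at 0.695 and 0.670.

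The members also moved together from cell to cell. The median Spearman correlation between pairs of members over the 65 iNSLCs was 0.325, and between pairs of all 2165 rows it was 0.008. The summed share correlated at 0.827 with the share of 34 translation factor genes, at 0.645 with EEF1A1, at 0.211 with the number of reads, at -0.296 with the number of detected genes and at 0.030 with IGFBP2, a secreted growth factor binding protein and the most abundant mRNA. These values describe 65 cells of 1 culture, whose genes share each cell's library and total. Within the cells numbered up to 56 and from 57, which are set apart next, the median pairwise correlations were 0.336 and 0.356 and those with the translation factor share 0.821 and 0.767. With IGFBP2 they were 0.588 and 0.029, so the lack of a relation over all cells did not hold in the lower numbers. The part of the shared library and total in these correlations was not tested.

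A part of the spread followed the cell number. The labels give no plate or library, and the division between cells numbered up to 56 (27 iNSLCs) and from 57 (38 iNSLCs) was known from earlier results of these data. The share of ribosomal protein reads had a median of 4.70% (3.03% to 6.96%) in the lower and 4.09% (2.92% to 7.14%) in the higher numbers, and both sets lay above ESC cells 10, 11 and 14, the iPSC and the fibroblast. The large to small subunit ratio had medians of 1.39 and 1.51. Of 75 members, 9 were more than 2-fold lower in the higher numbers and 0 more than 2-fold higher, beside 14.1% and 6.19% of 11180 rows. The 9 are 12% of the members, near the share over all rows. RPL5 had medians of 2953 and 1117 RPM and a log2 ratio of means of -1.52. RPL12, RPL15, RPS27L, RPL34, RPS13, RPS23, RPS27A and RPL39 had log2 ratios of -1.34, -1.27, -1.27, -1.25, -1.24, -1.16, -1.14 and -1.01. RPS27L and RPL34 reached the filter of 10 RPM only through the lower numbers, with means of 13.7 and 18.7 against 5.08 and 7.27, so that a lower level was fixed for them. The 5 least even members among iNSLCs were all among the 9. Their coefficient of variation over all iNSLCs includes this difference between the sets, so the overlap is not a separate result. RPS27, RPL35, RPL8, RPLP2 and RPL18 went the other way, at 0.98, 0.88, 0.74, 0.63 and 0.55, all below 2-fold. Within the sets the median coefficient of variation of members was 0.320 and 0.294, beside 0.620 and 0.486 for all rows. The ESC to iNSLC log2 ratio of RPL5 was -4.01 against the lower numbers and -2.49 against the higher, and that of RPS15A was -3.23 and -3.30. RPL5 therefore depends on which iNSLCs it is set against, and RPS15A hardly does. RPS13 and RPL18 were named here after their values were seen.

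**Figure D5:**
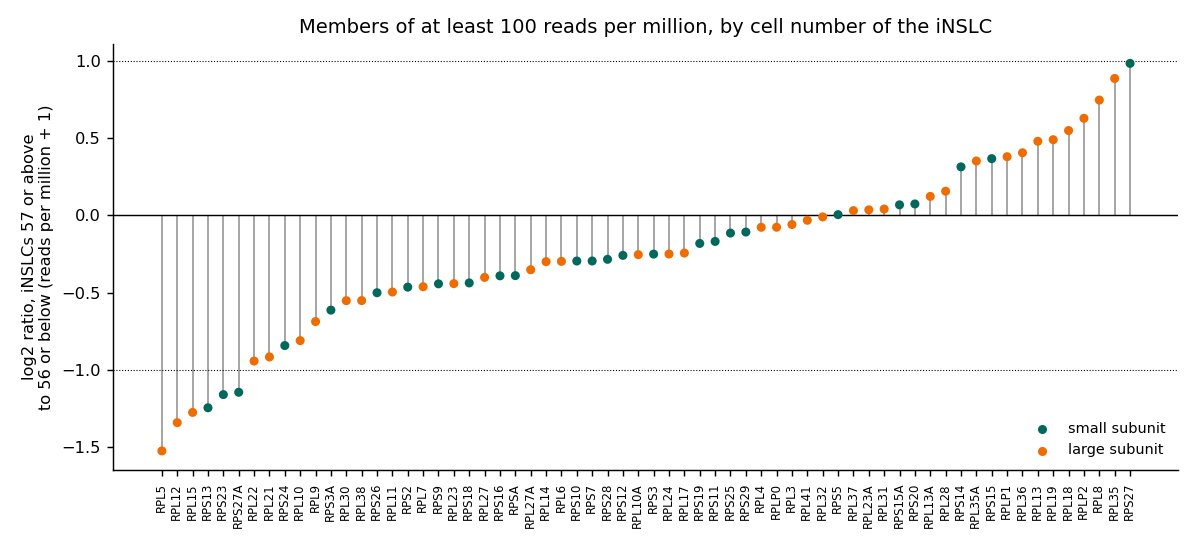
Log2 ratio of mean level (RPM plus 1) in iNSLCs numbered from 57 to those numbered up to 56, for 64 ribosomal protein genes with a mean of at least 100 RPM, coloured by subunit, with dotted lines at 2-fold. RPL5 is lowest at -1.52 and RPS27 highest at 0.98.

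Genes that build ribosomes mostly had higher means in ESCs and the iPSC than in iNSLCs, opposite to most proteins of the ribosome. Of 33 measured ribosome biogenesis genes, 17 were more than 2-fold higher in ESCs and 0 lower, beside 26.8% and 26.5% of all rows. The median log2 ratio was 1.13, beside 0.00 over all rows. The iPSC gave 16 higher and 1 lower (NIP7), beside 28.3% and 24.4% of all rows, and a median of 0.93 (0.15 over all rows). The fibroblast gave 3 higher (NHP2, NOP10 and BYSL) and 8 lower of 32, beside 16.5% and 41.3% of all rows. Its median was -0.38 (-0.65 over all rows). The share of reads on these biogenesis genes was 0.613%, 0.738%, 0.639% and 0.786% in ESC cells 10, 11, 12 and 14. It was 0.362% in the iPSC, 0.146% in the fibroblast and 0.110% to 0.433% in iNSLCs. ESC cell 12 lay with the other ESCs here. MDN1, an ATPase that strips factors from the large subunit precursor, had 2489, 2412, 1681 and 3261 RPM in the ESCs and 0 to 454 in iNSLCs. NOP56, a core protein of box C/D snoRNPs that guide RNA methylation, had 1024, 1392, 559.7 and 1145 against 0 to 400.3. For both genes the groups did not overlap. With MDN1 and NOP56 left out the share was 0.261% to 0.415% in ESCs and 0.0902% to 0.371% in iNSLCs, with overlap. The nucleolar proteins NCL and NPM1 had ESC log2 ratios of 1.58 and 0.26. MDN1 has a very long mRNA, and these levels are not per length.

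The medians of the remaining lists of the translation machinery are given beside all-row medians of 0.00 for ESCs, 0.15 for the iPSC and -0.65 for the fibroblast, in RPM, and these shift with the scaling as described for the fibroblast. Of all rows, 26.8% were more than 2-fold higher and 26.5% lower in ESCs, 28.3% and 24.4% in the iPSC, and 16.5% and 41.3% in the fibroblast. Several counts below lie near these shares, such as the 5 of 18 genes of mTOR signalling, LARP1 and the S6 kinase family higher in ESCs. Of 34 translation factor genes, 5 were more than 2-fold higher (EIF3B, EIF3D, EIF4G1, EIF5B and EIF6) and 11 lower in ESCs (median log2 ratio -0.42), 6 and 5 in the iPSC (-0.06), and 3 and 9 in the fibroblast (-0.50). The 5 lower in the iPSC were EEF1A2, EEF1D, EEF2, EIF3K and EIF4B, and the 3 higher in the fibroblast EIF3I, EIF4G1 and EIF6. The share of reads on the 34 genes was 0.566%, 0.747%, 1.99% and 1.02% in ESC cells 10, 11, 12 and 14. It was 1.14% to 2.99% in iNSLCs, 1.17% in the iPSC and 1.32% in the fibroblast. As with the ribosomal protein genes, ESC cells 10, 11 and 14 lay below every iNSLC and cell 12 inside their range. EEF1A1 had 429, 462, 4046 and 1580.0 RPM in the ESCs and 2029.5 to 7534 in iNSLCs, and EEF2, which moves the ribosome along the mRNA, 1375, 2970.3, 5472 and 2277 and 2829 to 13398. Both were lowest in ESC cell 10. EIF6, which keeps free large subunits from joining, was higher in all groups, with log2 ratios of 2.61, 2.19 and 2.74 for ESCs, the iPSC and the fibroblast. Mitochondrial ribosomal proteins, which serve a separate ribosome, gave 5 higher and 10 lower of 58 in ESCs (-0.18), 20 and 5 of 61 in the iPSC (0.44), and 7 and 13 of 58 in the fibroblast (-0.09). The 5 higher in ESCs were MRPS2, MRPS27, MRPL38, MRPL20 and MRPL55, and the 5 lower in the iPSC MRPL44, MRPL52, MRPL21, MRPL39 and MRPS6. Of 18 genes of mTOR signalling, LARP1 and the S6 kinase family, 5 were higher (MTOR, TSC1, LARP1, RPS6KB2 and RPS6KA5) and 3 lower (MLST8, RPS6KA3 and RPS6KA6) in ESCs (0.08). LARP1 had 971, 648, 916 and 687 in the ESCs and 124 to 737 in iNSLCs, and MTOR 527, 625, 355 and 519 and 17.5 to 495. The iPSC gave 0 higher and 4 lower (MLST8, TSC2, EIF4EBP1 and RPS6KB2) of 17 in that list (-0.11). The fibroblast gave 3 higher (TSC1, EIF4EBP1 and RPS6KB2) and 4 lower (EIF4EBP2, RPS6KA1, RPS6KA6 and RPS6KL1) of 17 (0.01).

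Ribosomal proteins and near copies whose symbols fall outside the pattern are 7 genes. They had median log2 ratios of -0.06 in ESCs, 0.14 in the iPSC and -0.31 in the fibroblast. The medians and 2-fold shares over all rows given above for the other lists apply here too. In ESCs 1 was more than 2-fold higher, RPL22L1 at 1.19, and 1 lower, RACK1, a scaffold on the small subunit, at -1.17. In the iPSC 2 were higher (RPL22L1 and RPL7L1) and 0 lower, and in the fibroblast 0 were higher and 1 lower (RPL22L1). FAU, which encodes a ribosomal protein fused to a ubiquitin-like protein, had an ESC ratio of -0.06. ESC cell 12 was its highest ESC, with 874 RPM.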

How the data were processed

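Single cells were sorted into plates and made into libraries with a RamDA-seq kit and a tagmentation kit, per the labels. The authors deposited 1 table of normalized counts (signal; TCC normalization by the study's methods) for 71 cells. Tools listed by the submitters in their processing notes, without roles, are Seurat 3.0.0, featureCounts 1.5.1, STAR 2.6.0c and Trimmomatic. For the build and the annotation, names were not given in the sources used here. In each cell the values were whole multiples of 1 step, the worth of a single read (0.405 to 2.84), with 100% of values within 0.02 of a whole number and a largest deviation of 0.0117. The signal was therefore divided back into reads. The nameless row (at most 0.449% of a cell) was left out. Levels are RPM (reads for every 1000000 reads on named rows), and ratios are log2 of group means plus a pseudocount of 1 over rows with at least 10 RPM in the higher group. A row counts as higher or lower past 2-fold. No count test was run, since cells of 1 culture are not replicates and each group is 1 culture. Intervals are exact Clopper-Pearson at 95% and cover counting error only, since reads without molecular identifiers are not independent molecules.

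Members, lists and tests were chosen with earlier results of these data known. Named members are the 10 highest in iNSLCs, up to 8 at each end of the ESC ratio and up to 4 at each end for the iPSC and fibroblast, the 5 highest and the 5 lowest coefficients of variation among means of at least 100, and members listed by role. Of each other list up to 4 genes are given with values, chosen after these were seen, and all genes of a count of 5 or fewer are named. Alternatives were the deposited scaling, a total without the 10 top rows that are not members, other pseudocount (10), filters (none, 100), medians in place of means, thinned reads, subsets of iNSLCs, and ESCs left out in turn. Values of a few single genes are not reported here, though sums and counts include them. The steps were tested on simulated data. Python 3.11.15, numpy 2.4.6, pandas 2.3.3, scipy 1.17.1 and matplotlib 3.10.9 were used.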

Additional observations from a re-analysis of the deposited data

Results flagged for a closer look

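ESC cell 12 stood apart from the other 3 ESCs by Dixon's test for a single distant value (gap to the nearest cell over the whole range, above the 95% critical value for 4 cells) in 10 of 49 measures examined. Chance gives about 1 flag in 20 such groups for measures fixed beforehand. Some of the 49 are members named for extreme ESC ratios in these same cells, so that rate need not hold for them. The 10 are not independent because they come from 1 cell. The share of reads on all members was among the 49 and was not flagged. In RPM, with the range of the other ESCs in brackets, the values were RPL11 313 (22.3 to 68.9), RPL13 836 (134 to 187), RPL39 75.1 (14.9 to 23.7), RPL4 1043 (178 to 253), RPL5 527 (64.8 to 116), RPL8 1586 (134 to 207), RPLP1 1596 (403 to 553), RPS12 1443 (105 to 134), RPS15A 543 (44.7 to 108) and RPS2 3079.9 (431 to 771). In each of these measures cell 12 was the high one. They include genes of both subunits, the 5S partners RPL5 and RPL11 and the stalk protein RPLP1. The cause was not tested.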

How the results depend on the processing

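Of the summary values recomputed under 15 settings, 153 moved by less than their limit (the spread over cells, or 1.5 times for a count) and 12 by more. In ESCs that spread includes cell 12. It was 1.75 percentage points for a share with a median of 1.33%, so even a complete loss would have kept to it. For the summed log2 ratio of -1.12 it was 1.09, and -0.77 on the deposited scaling and -1.91 without cell 12 both kept to it. The tally therefore says little about these ESC values or about named members in ESCs, such as RPL5 with a limit of 1.35. Leaving out the ESCs in turn gave 25 to 54 members more than 2-fold lower in ESCs and 1 to 4 more than 2-fold higher, where all 4 ESCs gave 31 and 3. The extremes of 54 and 1 were without ESC cell 12. Without ESC cells 11 and 12, chosen after seeing the data, 52 were lower. For the iPSC, 2 members were higher, where the report gives 1, both with every cell thinned to 128362 reads (59 iNSLCs and 4 ESCs kept) and with medians over cells. For the fibroblast on the deposited normalized counts, the summed log2 ratio was -0.038 and the counts were 7 lower and 7 higher. Over all 8048 rows tested there, 1636 were lower and 2750 higher. In RPM, the fibroblast's higher count was 2 against iNSLCs numbered 57 or above alone and 0 against those numbered 56 or below. The share in the fibroblast was 2.66% with the 10 top rows left out of the total and 2.58% after thinning, beside 2.53%. Of the values of named members, 1502 kept to their limit, 48 moved beyond it (38 of them on the deposited scaling) and 1 changed sign, RPL34 in the fibroblast, from -1.21 to 0.32 after thinning. The cause was not tested. No paired analysis was possible because no cell number occurs in more than 1 group. Low depth limits RPL34, RPL39L, RPL3L and RPS27L most, at few reads per cell.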
